A study of Mus musculus with 65 samples.

Results

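Among the transcripts counted in these nascent RNA libraries, 213 were noncoding transcripts of mouse genes that carry only a provisional Gm number. They were chosen by their level. Of 567 symbols that start with Gm and a digit and whose transcript has a noncoding RefSeq accession, those were kept whose normalized count averaged at least 50 over the 28 libraries of the A485 series, 1 of 4 experiments. The tables held 15020 symbols in all. Because the level chose the transcripts, levels are given as a description and only changes between groups were tested. Just inside the limit lay Gm39213 at 51.3, Gm34507 at 50.9 and Gm10612 at 50.8, and just outside it Gm6329 at 49.8, Gm10536 at 49.6 and Gm15798 at 48.6. The mean runs over all groups, so 8 transcripts reached the limit although their DMSO libraries averaged under 50. Gm10612, Gm15446 and Gm26536, named later, were among these, with DMSO means of 36.9, 36.1 and 34.5. All 213 were found by transcript in the other gene tables.

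A Gm number is a placeholder for a mouse gene model that has no published name. Long noncoding RNAs of this kind often start close to a coding gene or an enhancer, and many are degraded soon after they are made, so assays of nascent RNA can detect them where assays of steady RNA do not. PRO-seq labels the RNA that engaged polymerases are making in isolated nuclei. Mtg16, the product of Cbfa2t3, is a corepressor that does not bind DNA by itself and joins complexes with DNA-binding factors such as GATA1, TAL1 and E proteins in blood cells.

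All cells were MEL Mtg16-FKBP-2XHA, a murine erythroleukemia line in which Mtg16 is tagged, controls included. The labels name neither clones nor separate cultures, so p-values measure only the spread between libraries, which may be technical. The degrader, dTAGV1 at 250 nM, leads the tagged protein to destruction. A485 at 10 µM inhibits the acetyltransferases p300 and CBP, and LBH589 at 5 nM inhibits histone deacetylases.

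In the time course, DMSO cells were set beside degrader for 15 min, 30 min, 1 h and 2 h and beside washout for 30 min, 1 h and 2 h after 2 h of degrader. In the A485 series, DMSO cells were set beside degrader, A485 or both for 15 min, 30 min and 1 h. In the LBH589 series they were set beside LBH589 for 30 min and 1 h. The LBH589 washout series had no DMSO group, and its cells had 2 h of degrader before washout for 30 min or 1 h; when LBH589 was added is not given in the sources used here. As used here, groups held 3 libraries, except 2 for degrader 2 h, washout 30 min and washout 2 h, for A485 30 min and for both agents at 30 min, and 1 for washout 1 h.

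The 62 libraries used of 65 held 7453718 to 62384678 reads in genes, of which the Gm transcripts took 0.476% to 0.575%. Of 12 listed erythroid genes in the tables, 11 averaged at least 10 normalized counts in DMSO cells, and their sum was 16759 to 28383 per library. The exception was the globin gene Hbb-bs. Megakaryocyte genes summed to 3405 to 5900, and the lists for granulocytes and macrophages, lymphoid cells, fibroblasts and endothelium, and neurons and epithelium to 14.5 to 151. Cbfa2t3 cannot check the loss of the protein, but its own normalized count was 28757, 23508 and 19178 in DMSO and 156652, 159397 and 153639 at degrader 1 h of the time course.

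Some labels of the time course were in doubt. The 5 libraries of degrader 1 h and 2 h are titled A485 while their library names say degrader, and they are grouped here by library name. Over the 2000 most variable symbols, 2 libraries stood apart. The library labelled degrader 15 min replicate 2 correlated at a mean of -0.52 with the others of its group and at 0.6 with washout 1 h. The library labelled degrader 30 min replicate 3 correlated at -0.31 with its group and at 0.91 with washout 30 min. Libraries of the other time-course groups correlated at 0.65 to 0.95 with their own group, and those of the LBH589 washout series at 0.33 to 0.73. All groups of an experiment shared 1 estimate of spread, so time-course counts are given with and without the 2 libraries.

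The start regions of transcripts that changed most are shown from RefSeq, as 250 bases before to 50 bases after a start in build GRCm38.p6. The deposited counts rest on mm39 per the submitters' processing notes, so no count is placed on these coordinates. Capitals mark matches on either strand to the 7 motifs searched: 2 forms of the GATA motif, 2 forms of the E-box, the TATA box, the CCAAT box and the GC box. The first 4 windows belong to transcripts that rose with the degrader: Gm10612 (chr8:122697609-122697908, plus strand), Gm35202 (chr2:35503274-35503573, plus strand), a start of Gm33370 (chr5:96921186-96921485, minus strand) and Gm8013 (chr5:96921022-96921321, plus strand). The last 2 of these share 136 bases in opposite orientation. The fifth window starts both Gm32817 and Gm53058 (chr16:13447702-13448001, plus strand), which fell.
Gm10612: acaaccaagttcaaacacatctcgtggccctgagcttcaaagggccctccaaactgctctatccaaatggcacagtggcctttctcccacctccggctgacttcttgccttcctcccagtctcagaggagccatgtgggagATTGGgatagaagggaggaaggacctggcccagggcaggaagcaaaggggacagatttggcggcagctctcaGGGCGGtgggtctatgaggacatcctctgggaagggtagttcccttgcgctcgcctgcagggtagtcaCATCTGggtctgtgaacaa
Gm35202: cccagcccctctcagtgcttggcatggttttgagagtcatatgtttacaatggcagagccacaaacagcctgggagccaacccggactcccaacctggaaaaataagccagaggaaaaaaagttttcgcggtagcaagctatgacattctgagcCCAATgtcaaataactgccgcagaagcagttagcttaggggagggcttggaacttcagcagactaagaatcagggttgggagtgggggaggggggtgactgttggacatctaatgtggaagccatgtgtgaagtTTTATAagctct
Gm33370: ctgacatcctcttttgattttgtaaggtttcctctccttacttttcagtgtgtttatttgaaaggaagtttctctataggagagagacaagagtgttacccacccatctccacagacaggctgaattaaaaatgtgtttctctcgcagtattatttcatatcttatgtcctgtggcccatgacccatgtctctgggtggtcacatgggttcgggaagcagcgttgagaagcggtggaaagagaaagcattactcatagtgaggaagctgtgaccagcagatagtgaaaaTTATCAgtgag
Gm8013: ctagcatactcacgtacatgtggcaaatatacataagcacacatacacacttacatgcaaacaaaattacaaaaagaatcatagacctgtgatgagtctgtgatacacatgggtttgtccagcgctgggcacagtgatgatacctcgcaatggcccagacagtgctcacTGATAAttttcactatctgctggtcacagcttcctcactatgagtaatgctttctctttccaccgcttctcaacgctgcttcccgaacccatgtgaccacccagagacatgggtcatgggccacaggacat
Gm32817: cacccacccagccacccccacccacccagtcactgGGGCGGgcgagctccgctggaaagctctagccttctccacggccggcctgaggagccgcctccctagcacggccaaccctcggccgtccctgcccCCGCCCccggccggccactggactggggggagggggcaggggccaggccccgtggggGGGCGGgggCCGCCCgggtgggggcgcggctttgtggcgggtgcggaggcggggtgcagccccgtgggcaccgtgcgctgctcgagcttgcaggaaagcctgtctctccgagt

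The Gm10612 window held an E-box form, a CCAAT box and a GC box, the Gm35202 window a CCAAT box and a TATA box, and the Gm33370 and Gm8013 windows a GATA form that is 1 site in their shared bases, read from both strands. The window of the other start of Gm33370, not shown, held 3 matches to the other GATA form. The Gm32817 window was 76.7% G and C and held 4 GC box matches. Of all 32851 windows of this length and the 184 windows of 168 Gm transcripts, the 2 sets of shares were compared. The first GATA form was AGATAA in 11.2% of all windows and 5.98% of the Gm windows. The other form was TGATAA in 9.05% of all windows and 3.80% of the Gm windows. The first E-box form was CAGCTG in 16.3% of all windows and 15.2% of the Gm windows. The second was CAGATG in 17.2% of all windows and 16.3% of the Gm windows. The TATA box was TATAAA in 13.6% of all windows and 6.52% of the Gm windows, the CCAAT box was CCAAT in 37.4% of all windows and 39.7% of the Gm windows, and the GC box was GGGCGG in 35.7% of all windows and 45.1% of the Gm windows. A match of letters does not show that a factor binds.

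Mean normalized counts in the A485 series ran from 50.8 to 15843 with a median of 183.0, and 20 transcripts averaged at least 1000. The highest was Gm38431, which overlaps Fdx2, a ferredoxin gene, and Raver1 on the same strand. Gm21992, the next, overlaps Rbm14 and Rbm4, genes of RNA-binding proteins, in the same way. Reads of such transcripts cannot be told apart from those of the coding genes, and 16 transcripts were of this kind. RefSeq types 195 of the genes as long noncoding, 14 as transcribed pseudogenes and 4, Gm21992 among them, as protein-coding with a noncoding transcript. Another 66 overlapped a coding gene on the opposite strand, 36 overlapped one with the relative strand not given, 22 only started within 2000 bases of a coding start on the opposite strand, and 73 had none of these neighbours. Whether reads were counted by strand is not given in the sources, so antisense partners may share reads too.

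Per kilobase of gene, the mean normalized count ran from 1.55 to 917 with a median of 17.2. Gm7334, a transcribed pseudogene, was highest, but its reads differed by at most 29 in any library from those of Btg3, an antiproliferative gene, and the pair cannot be separated. Likewise Gm2260 and Gm2274 differed by at most 2 reads, and Gm3255 and Gm52298 had the same values throughout. Next per kilobase came Gm38431 at 647 and Gm41640 at 187. Within groups, the median standard deviation of log2(value + 1) was 0.161 for the Gm transcripts and 0.097 for all symbols tested in the A485 series, and 0.195 and 0.152 in the time course.

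With the degrader in the A485 series, most transcripts that passed the test were higher. By limma on log2(value + 1), with p-values adjusted over all symbols and a threshold of 0.05, 24 were higher and 6 lower at 15 min, where 16.7% of all symbols tested were called, 10.9% higher and 5.8% lower. At 30 min 27 were higher and 12 lower, where 20.6% of all symbols tested were called, 11.3% higher and 9.23% lower. At 1 h 53 were higher and 8 lower, where 25.6% of all symbols tested were called, 14.7% higher and 10.9% lower. Of these 53, 2 had DMSO means under 50, so their calls are conditioned on the choice. At 15 min quantile normalization gave 21 higher and 11 lower. The 28.6% of Gm transcripts called at 1 h was thus near the background, while their median change was 0.13 on the log2 scale, beside -0.001 over all symbols. With quantile normalization these medians were 0.061 and -0.032. Noncoding Rik transcripts chosen by the same level rule gave 63 higher and 17 lower of 284, with a median of 0.12. Of 37 named long noncoding RNA genes, 4 were higher and 16 lower. Among these, Snhg3 and Snhg1, hosts of small nucleolar RNAs, changed by -1.28 ± 0.13 and -1.01 ± 0.12 (log2, SE), and Hotair, transcribed from a Hox cluster, by 0.90 ± 0.16.

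In the time course the degrader gave 17 higher and 2 lower at 15 min, where 6.93% of all symbols tested were called, 5.89% higher and 1.04% lower. At 30 min it gave 14 and 11, where 13.9% of all symbols tested were called, 8.69% higher and 5.17% lower. At 1 h it gave 24 and 2, where 11.3% of all symbols tested were called, 8.13% higher and 3.13% lower. The 2 lower ones at 1 h were Gm2260 and Gm2274, which differ by at most 2 reads in any library and cannot be separated. At 2 h it gave 15 and 2, where 9.39% of all symbols tested were called, 6.77% higher and 2.63% lower. Without the 2 libraries that stand apart, 58, 45, 59 and 51 transcripts were called at the 4 times, where 27.8%, 21.1%, 30.2% and 31% of all symbols were called in the same fit. By direction, 14.1%, 12.2%, 15.1% and 17% of all symbols were higher there, and 13.7%, 8.86%, 15.1% and 14% were lower. Over all symbols that fit was thus nearly even at 15 min and 1 h, unlike the main fit. The split of the Gm transcripts in it is not given here. With 1 library at a time left out, the counts were 14 to 30, 12 to 40, 17 to 25 and 7 to 11. At 15 min the high end came without degrader replicate 2, the library that stands apart, and at 30 min without degrader replicate 1. At 30 min the low end came without DMSO replicate 2 or 3, and at 1 h without DMSO replicate 3 or degrader replicate 1. At 2 h each of the 5 libraries moved the count by more than 1.5 times.

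The 2 experiments share no library. At 1 h, 16 transcripts were called higher in both, 66.7% of the 24 in the time course and 30.2% of the 53 in the A485 series, and none was called in opposite directions. Over all symbols tested in both, 73.8% and 39.8% of the higher lists were shared. The Gm transcripts were Gm10612, Gm13032, Gm14636, Gm15555, Gm16863, Gm19696, Gm24105, Gm32633, Gm33370, Gm35202, Gm48551, Gm5535, Gm5907, Gm6093, Gm6787 and Gm8013. Of these 16, only Gm10612 had a DMSO mean under 50 in the A485 series. Its call there is conditioned on the choice, so its place among the 16 is no support. Gm5907 lost its time-course call without DMSO replicate 2 or 3 or degrader replicate 1, 2 or 3 (0.65 to 0.73). At 30 min, Gm38250 was called lower in the time course and higher in the A485 series (-0.49 and 0.30). The first was -0.34 (adjusted p = 0.0114) without the libraries that stand apart and was not called without DMSO replicate 1 or 3 (-0.47 to -0.45), and the second was not called without DMSO replicate 6 (0.24).

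**Figure D1:**
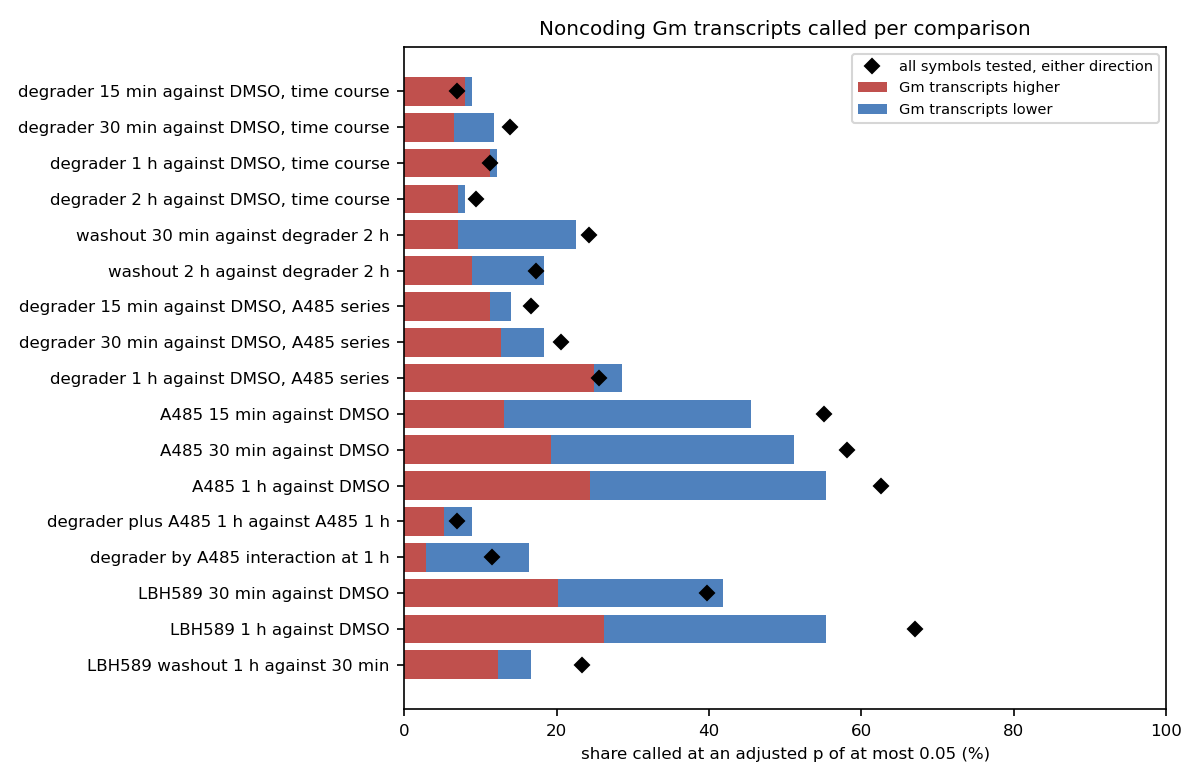
Share, in percent, of the 213 noncoding Gm transcripts (211 in the LBH589 washout series) called higher (red) and lower (blue) in each comparison; a diamond is the share of all symbols called in either direction. At A485 1 h and LBH589 1 h 55.4% and 55.4% were called, below the diamonds at 62.6% and 67%.

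Gm10612 changed most in the time course. It overlaps Cbfa2t3 on the opposite strand over 64.0% of its length, with starts 1250 bases apart. Its normalized count was 35.3, 26.8 and 26.1 in DMSO, 223, 436 and 243 at degrader 15 min and 433, 393 and 352 at 1 h. The 15 min value of 436 is from the library that stands apart. Every degrader library at these times was far above DMSO, and the 1 h change was 3.70 ± 0.27 (log2, SE; limma adjusted p = 1.24e-07). In the A485 series it was 34.3, 36.5 and 39.8 in DMSO and 127, 155 and 113 at 1 h, again apart (1.80 ± 0.47, adjusted p = 0.00437). In that series it reached the level limit only through the degrader libraries, so its rise there is conditioned on the choice and is no support for the rise in the time course. Cbfa2t3 changed by 2.74 and 2.18 in these comparisons. With strand use unknown, reads in the overlap cannot be told apart between the pair.

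Gm35202, whose nearest tested coding gene is Ggta1, a galactosyltransferase gene, rose in both experiments. In the time course it was 59.5, 42.4 and 44.0 in DMSO, 350, 330 and 301 at 15 min and 366, 307 and 358 at 1 h (2.81 ± 0.15, adjusted p = 6.09e-09). No degrader library at these times came near the DMSO range. In the A485 series it was 47.9, 65.0 and 61.8 in DMSO, 162, 163 and 157 at 15 min, 201, 181 and 228 at 30 min and 272, 360 and 262 at 1 h (2.33 ± 0.23, adjusted p = 7.06e-10). There each time lay above the one before it, with no overlap.

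Gm33370 and Gm8013 start 37 bases apart on opposite strands, and both rose. The other start of Gm33370 lies beyond the start of Gm8013, so the genes overlap on opposite strands. With strand use unknown, they may share reads, and their rises may not be separate. Gm33370 went from 359, 287 and 315 to 925, 948 and 925 at 1 h of the time course (1.55 ± 0.10, adjusted p = 4.21e-08) and from 269, 284 and 299 to 562, 611 and 572 in the A485 series (1.03 ± 0.13, adjusted p = 9.15e-08). Gm8013 went from between 462 and 536 in the 3 DMSO libraries to 1072, 1113 and 1049 (1.13 ± 0.08, adjusted p = 7.96e-08), and from 450, 442 and 491 to 648, 675 and 653 (0.52 ± 0.10, adjusted p = 0.000239). DMSO and degrader libraries did not overlap for either transcript.

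Gm19696 and Gm41640 both have Zfp36l2, the gene of an RNA-decay factor, as nearest tested coding gene. Gm19696 went from 855, 899 and 931 to 1936, 2023 and 2001 in the time course (1.15 ± 0.10, adjusted p = 6.98e-07) and from 1460, 1704 and 1585 to 2735, 3131 and 2705 in the A485 series (0.85 ± 0.09, adjusted p = 6.1e-09). Gm41640 went from 4543, 4388 and 4605 to 6316, 5904 and 6143 in the time course (0.44 ± 0.10, adjusted p = 0.00699). In the A485 series it was 6991, 6536 and 6487 in DMSO and 6092, 7088 and 6809 with degrader, which overlap (0.00 ± 0.06, adjusted p = 0.977). The difference between the experiments was not tested.

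Gm6787, a transcribed pseudogene near Was, a regulator of actin in blood cells, went from 206, 201 and 177 to 784, 736 and 763 in the time course (1.96 ± 0.10, adjusted p = 6.09e-09). In the A485 series it went from 145, 144 and 129 to 275, 220 and 212 (0.75 ± 0.13, adjusted p = 4.79e-05). Gm32633, whose nearest tested coding gene is Klf13, a zinc-finger factor gene, changed by 1.35 ± 0.21, adjusted p = 0.000361 and 1.17 ± 0.18, adjusted p = 8.56e-06. Gm5535 changed by 0.58 and 1.14, and Gm15555 by 1.42 and 0.66, all called higher. Gm5535 lost its time-course call without DMSO replicate 2 or 3 or degrader replicate 1, 2 or 3 (0.48 to 0.6), and Gm15555 its call in the A485 series without DMSO replicate 4 or 6 or degrader replicate 4 or 6 (0.57 to 0.67).

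**Figure D2:**
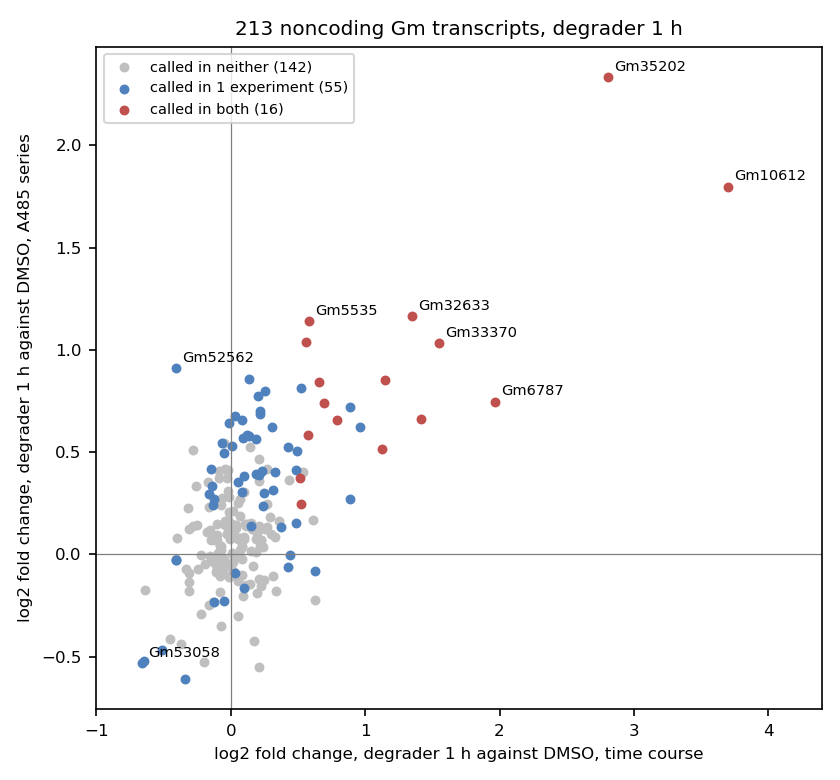
Log2 fold change at degrader 1 h against DMSO in the time course (x axis) and the A485 series (y axis), a point for each of the 213 transcripts. The 16 called in both (red) are all above 0 on both axes. Gm10612 lies at 3.70 and 1.80, the second value being conditioned on the choice by level.

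The transcripts called lower at degrader 1 h in the A485 series were Gm15417, Gm16740, Gm21992, Gm31679, Gm32817, Gm38426, Gm38431 and Gm53058. Of these, Gm15417 lost its call without DMSO replicate 4 or 6 or degrader replicate 4 (-0.46 to -0.41), Gm16740 without DMSO replicate 5 or 6 or degrader replicate 4, 5 or 6 (-0.26 to -0.19) and Gm31679 without DMSO replicate 4 or 5 or degrader replicate 4 or 6 (-0.6 to -0.48). Gm53058 lies wholly within Gm32817 on the same strand, so the pair shares reads. Gm53058 was 5423, 5276 and 5416 in DMSO, 4093, 3916 and 3949 at 30 min and 3964, 3620 and 3577 at 1 h (-0.53 ± 0.05, adjusted p = 8.06e-10), and Gm32817 changed by -0.52 ± 0.05. Degrader libraries at both times were below DMSO. In the time course Gm53058 was 8566, 8536 and 8505 in DMSO and 5367, 5362 and 5461 at 1 h, also without overlap, but the test was not passed (-0.66 ± 0.28, adjusted p = 0.165). With only these groups in the fit the adjusted p was 3.1e-09, and without the libraries that stand apart 1.42e-09, at the same change. At 30 min the libraries were at 6419, 5889 and 2080, the last being the one that stands apart. The 30 min change was -0.99 ± 0.28, adjusted p = 0.029, or -0.47 (adjusted p = 1.92e-06) without the 2 libraries that stand apart, and it was not called without DMSO replicate 1, 2 or 3 (-1.0 to -0.99).

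Gm40085, near Etv3, a gene of an ETS-family repressor, was also lower at 30 min in both experiments. It was 1100, 997 and 1021 in DMSO and 752, 740 and 290 at 30 min of the time course (-0.93, or -0.48 without the libraries that stand apart). In the A485 series it was 944, 987 and 989 and then 787, 784 and 791 (-0.30 ± 0.08, adjusted p = 0.00786). The groups did not overlap in either experiment. In the time course it was not called without DMSO replicate 1, 2 or 3 or degrader 30 min replicate 3 (-0.96 to -0.48).

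**Figure D3:**
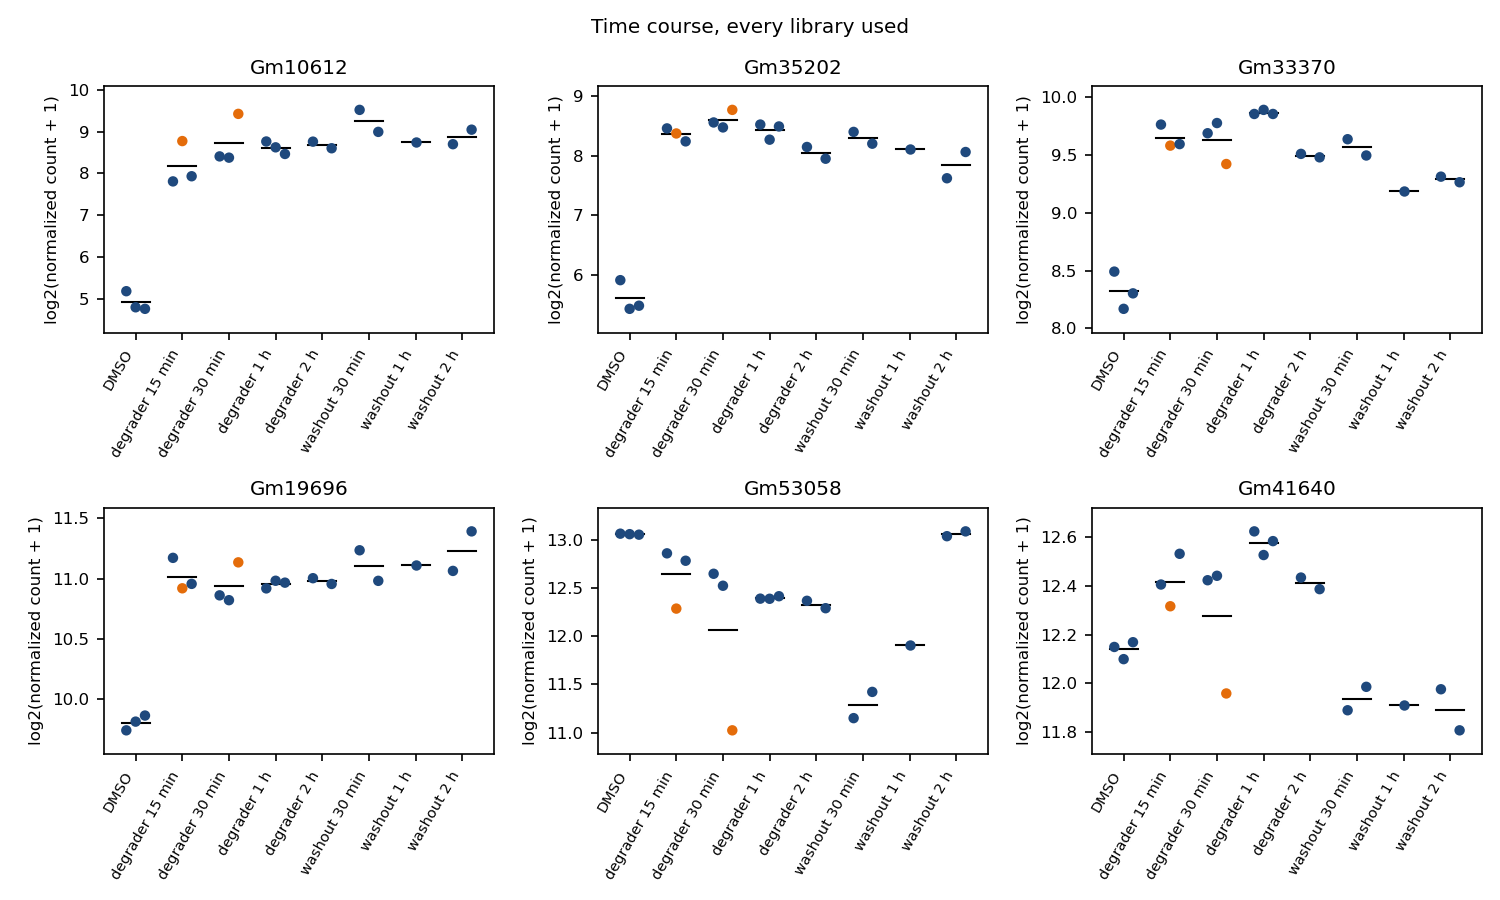
Log2(normalized count + 1) of 6 transcripts in each library used of the time course, by group; lines are means of the log2 values, and orange points are the 2 libraries that stand apart. The y axes do not start at 0. Gm10612, Gm35202, Gm33370 and Gm19696 are lowest in DMSO.

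Washout followed 2 h of degrader, and the comparison asks which transcripts differ once the degrader is removed. At washout 30 min 15 were higher and 33 lower than at degrader 2 h, where 24.3% of all symbols tested were called, 10.5% higher and 13.8% lower. At washout 2 h 19 were higher and 20 lower, where 17.3% of all symbols tested were called, 8.98% higher and 8.3% lower. The first count rests on each library: with any 1 of the 4 left out limma called 0, with 54 to 64 at an unadjusted p under 0.05. At washout 2 h 14 to 18 were called with any 1 of the 4 left out. Without the 2 libraries that stand apart the counts were 102 and 84, where 50.9% and 43% of all symbols were called in the same fit. With quantile normalization 14 were higher and 26 lower at 2 h.

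Gm10612 was 432 and 387 at degrader 2 h, 732 and 508 at washout 30 min and 414 and 527 at washout 2 h, neither change passing the test (adjusted p = 0.212 and 0.74). Gm35202 was 282 and 246 at degrader 2 h and 196 and 266 at washout 2 h (-0.20 ± 0.19, adjusted p = 0.491). At washout 2 h both were above all of their DMSO libraries. Gm53058 was 5284 and 5010 at degrader 2 h, 2271 and 2743 at washout 30 min (-1.04 ± 0.35, adjusted p = 0.04) and 8412 and 8709 at washout 2 h (0.73 ± 0.35, adjusted p = 0.158; adjusted p = 1.35e-07 with only these groups in the fit and 2.1e-08 without the libraries that stand apart). It was thus lower at 30 min, a call lost without degrader 2 h replicate 1 or 2 or washout 30 min replicate 1 or 2 (-1.18 to -0.91), and its 2 h libraries lay near the DMSO libraries.

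The largest fall at washout 2 h was in Gm11335, from 231 and 230 to 47.1 and 66.3 (-2.02 ± 0.54, adjusted p = 0.0183). Of the 213 transcripts it had the widest spread within groups of the time course. The largest rise was in Gm15760, a transcribed pseudogene beside the clathrin adaptor gene Ap2m1, from 54.2 and 54.0 to 173 and 205 (1.78 ± 0.37, adjusted p = 0.00459). Gm34121, which starts beside the ubiquitin ligase gene Herc2 on the opposite strand, went from 45.9 and 50.5 to 151 and 138 (1.57 ± 0.25, adjusted p = 0.000954). Gm15441, which overlaps Txnip, the gene of a thioredoxin-binding protein, went from 1394 and 1458 to 694 and 784 (-0.95 ± 0.14, adjusted p = 0.000423). None of these 4 pairs of groups overlapped. Gm15760 was not called without 1 of the 2 washout 2 h libraries (1.66), and Gm11335 without degrader 2 h replicate 1 or 2 or either washout 2 h library (-2.27 to -1.78).

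A485 gave 28 higher and 69 lower at 15 min, where 55.1% of all symbols tested were called, 25.8% higher and 29.3% lower. At 30 min it gave 41 and 68, where 58.1% of all symbols tested were called, 27.1% higher and 31% lower, and at 1 h 52 and 66, where 62.6% of all symbols tested were called, 29.4% higher and 33.2% lower. The share of Gm transcripts called was below the background at each time. Of the 52 higher at 1 h, 3 had DMSO means under 50, so their calls are conditioned on the choice. At 1 h 21 of the lower ones and 7 of the higher ones changed by at least 1 on the log2 scale. The share of all symbols at this cut was not computed. The split moved with scaling. Quantile normalization, which puts the median of all symbols at 0.108, 0.134 and 0.148 at the 3 times, gave 47 higher and 57 lower at 15 min and 71 and 60 at 1 h. The share of all symbols called in that fit was not computed.

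The largest fall at A485 1 h was again in Gm10612, from 34.3, 36.5 and 39.8 in DMSO to 2.43, 5.81 and 5.43 at 15 min and 0, 8.62 and 0 at 1 h (-4.15 ± 0.47, adjusted p = 2.76e-09). With counts this near 0 the size depends on the pseudocount: it was -4.83 with 0.5 and -2.58 with 5 in place of 1. In whole reads it had 38, 32 and 40 in the DMSO libraries and 0, 6 and 0 at A485 1 h, the shallowest group with 7453718 to 14686743 reads in genes per library. Summed over libraries and per read in genes, DMSO over A485 was 8.47, with an exact 95% interval from 3.77 to 23.6, which covers counting error only. Cbfa2t3 changed by -4.13. Gm53058 was 5423, 5276 and 5416 in DMSO, 2359, 2416 and 2439 at 15 min and 1048, 910 and 974 at 1 h (-2.46 ± 0.05, adjusted p = 3.15e-29), each below the one before it without overlap.

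Gm19696 went from 1460, 1704 and 1585 to 316, 354 and 425 (-2.12 ± 0.09, adjusted p = 2.16e-20), and Gm41640 from 6991, 6536 and 6487 to 1614, 1663 and 1515 (-2.06 ± 0.06, adjusted p = 1.72e-24). Both were far below their DMSO libraries. Gm32633 fell too (-1.90 ± 0.18, adjusted p = 6.96e-11), as did Gm15555 (-1.85 ± 0.23, adjusted p = 1.94e-08), Gm35202 (-1.75 ± 0.23, adjusted p = 3.94e-08) and Gm8013 (-1.67 ± 0.10, adjusted p = 5.7e-16). Gm6787, at 152, 129 and 113 beside 145, 144 and 129 in DMSO, did not pass (-0.09 ± 0.13, adjusted p = 0.556).

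Gm26536, which overlaps Wdfy2 on the opposite strand, rose most, from 32.5, 34.2 and 36.9 to 80.4, 96.3 and 92.7 (1.35 ± 0.22, adjusted p = 3.65e-06). It reached the level limit only through treated libraries of this series, so this rise is conditioned on the choice. Gm12216, near the interferon regulatory factor gene Irf1, went from 227, 241 and 191 to 477, 499 and 536 (1.20 ± 0.09, adjusted p = 3.94e-14). Gm28535, antisense to the kinase gene Pask, went from 107, 106 and 122 to 227, 237 and 209 (1.00 ± 0.12, adjusted p = 1.1e-08). None of these overlapped DMSO. Gm52562, antisense to the phosphatase gene Ptpra, was more variable, at 161, 496 and 360 beside 144, 139 and 165 in DMSO (1.03 ± 0.23, adjusted p = 0.000205).

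**Figure D4:**
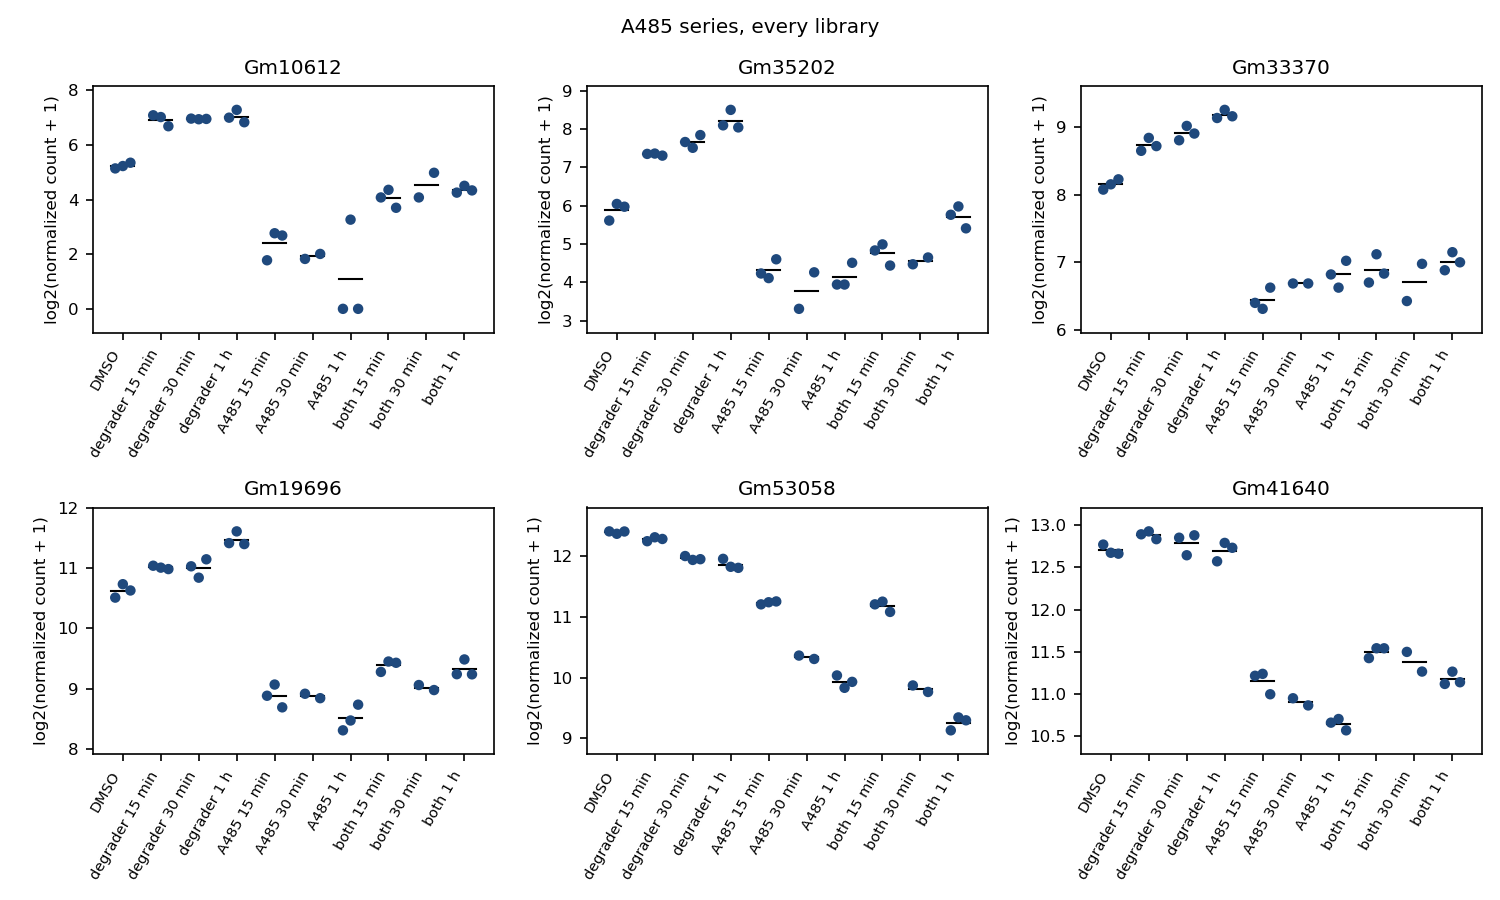
Log2(normalized count + 1) of the same 6 transcripts in each library of the A485 series, by group; lines are means of the log2 values. The y axes do not all start at 0. All 6 are lower at A485 1 h than in DMSO, and Gm10612 and Gm35202 are higher with both agents at 1 h than with A485 alone.

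The combination asks whether the degrader still acts when p300 and CBP are inhibited. At 1 h, both agents against A485 gave 11 higher and 8 lower, where 6.9% of all symbols tested were called, 4.56% higher and 2.34% lower. Gm10612 was 18.1, 21.7 and 19.2 with both and 0, 8.62 and 0 with A485 (3.28 ± 0.47, adjusted p = 7.6e-06; 1.82 with a pseudocount of 5). Gm35202 was 53.3, 62.1 and 41.5 with both and 14.4, 14.4 and 21.8 with A485 (1.58 ± 0.23, adjusted p = 6.01e-06). Both transcripts were apart between these groups. For Gm10612 the combination had 17, 29 and 25 reads, and summed per read in genes the ratio to A485 was 5.24, with an exact 95% interval from 2.29 to 14.8. Gm32633 and Gm19696 were also higher (1.31 ± 0.18 and 0.82 ± 0.09), and Gm53058 was lower (-0.67 ± 0.05). Of the 11 higher here, 8 were among the 53 higher with degrader alone, 72.7% and 15.1% of the lists; the comparisons share no library, and over all symbols 64.3% and 19.9% were shared. Without replicate 2 of the combination 11 transcripts were called in all.

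The interaction at 1 h, the degrader's effect with A485 minus its effect without, was called higher in 6 transcripts and lower in 29, where 11.5% of all symbols tested were called, 4.99% higher and 6.54% lower. It was not called for Gm10612 (1.48 ± 0.67, adjusted p = 0.156), Gm35202 (-0.75 ± 0.32, adjusted p = 0.13), Gm32633 (0.15 ± 0.26, adjusted p = 0.779) or Gm19696 (-0.03 ± 0.13, adjusted p = 0.908). Gm10612 gave 2.57 (adjusted p = 7.68e-05) without A485 replicate 2, the only A485 1 h library in which it had reads, and Gm35202 -0.87 (adjusted p = 0.0378) with a pseudocount of 5. It was called for Gm33370, which the degrader changed by 1.03 alone and 0.19 on top of A485 (-0.84 ± 0.18, adjusted p = 0.00155). That transcript was 117, 141 and 127 with both agents and 112, 97.7 and 129 with A485. Gm16863, near the ephrin receptor gene Ephb3, changed by 1.04 alone and -0.41 on top of A485 (-1.45 ± 0.27, adjusted p = 0.000431); the second value was -0.73 (adjusted p = 0.00649) without A485 replicate 1. Without DMSO replicate 4, 21 transcripts were called.

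LBH589 gave 43 higher and 46 lower at 30 min, where 39.7% of all symbols tested were called, 17.8% higher and 21.9% lower. At 1 h it gave 56 and 62, where 67% of all symbols tested were called, 32.4% higher and 34.6% lower. Of these transcripts, 3 of the higher and 2 of the lower changed by at least 1 on the log2 scale. The share of all symbols at this cut was not computed. Gm10658, which starts 74 bases from Sin3a, a gene of a deacetylase corepressor, went from 83.4, 99.6 and 89.2 to 245, 182 and 236 (1.27 ± 0.12, adjusted p = 2.97e-10). Gm11110, which overlaps the cytokine gene Tnfsf9, went from 322, 343 and 337 to 739, 659 and 675 (1.04 ± 0.07, adjusted p = 4.39e-14). Gm26536 went from 18.0, 22.5 and 9.34 to 31.4, 33.9 and 35.0 (1.05 ± 0.26, adjusted p = 0.000844). In all 3 the groups were apart.

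Gm53058 was 6972, 6710 and 7241 in DMSO, 4174, 4387 and 4067 at 30 min and 3267, 3436 and 3129 at 1 h (-1.09 ± 0.04, adjusted p = 7.41e-20). Gm41640 went from 8105, 8419 and 8583 to 4843, 4762 and 4764 (-0.81 ± 0.03, adjusted p = 2.07e-18), and Gm33370 from 496, 527 and 509 to 278, 308 and 271 (-0.84 ± 0.07, adjusted p = 1.86e-11). All 3 were below every DMSO library at 1 h. Gm10612 was 109, 116 and 123 in DMSO, 51.8, 77.4 and 62.1 at 30 min and 83.0, 71.0 and 83.0 at 1 h (-0.55 ± 0.15, adjusted p = 0.00151). Gm35202, at 104, 82.8 and 83.8 beside 100, 62.0 and 89.2 in DMSO, did not pass (0.12 ± 0.16, adjusted p = 0.502). A485 and LBH589 share no library: at 1 h 23 transcripts were lower with both, 34.8% and 37.1% of the lists, 14 were higher with both, 21 were lower with A485 and higher with LBH589, and 11 the reverse. Over all symbols 37.5% and 36.2% of the lower lists were shared, close to the shares of the Gm transcripts. The 11 higher with A485 and lower with LBH589 were 21.2% and 17.7% of their lists, below 37.4% and 31.4% over all symbols. The 21 lower with A485 and higher with LBH589 were 31.8% and 37.5%, beside 34.9% and 36.2% over all symbols. The 14 higher with both were 26.9% of the A485 list, beside 30.7% over all symbols. These differences were not tested.

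In the LBH589 washout series, 26 of 211 transcripts tested were higher and 9 lower at 1 h than at 30 min of washout, where 23.3% of all symbols tested were called, 13.2% higher and 10.1% lower. The count was 7 to 58 with 1 library left out: 16, 7 and 7 without washout 30 min replicates 1, 2 and 3, and 58 without washout 1 h replicate 3. With quantile normalization 16 were higher and 16 lower. Gm15760 went from 31.3, 22.3 and 18.2 to 64.4, 44.4 and 61.1 (1.23 ± 0.29, adjusted p = 0.0152), and Gm32817 from 4230, 4618 and 4580 to 2459, 2582 and 2249 (-0.88 ± 0.08, adjusted p = 0.000439), both without overlap. Gm19951 went from 89.6, 58.2 and 74.8 to 126, 175 and 566 (1.66 ± 0.45, adjusted p = 0.0261), or by 1.02 without the last library, and was not called without washout 30 min replicate 1, 2 or 3 (1.5 to 1.8). Gm15760 was not called without washout 30 min replicate 2 or 3 or washout 1 h replicate 1 (1.05 to 1.19).

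Transcripts that start beside a coding gene were set beside it. Over 78 pairs with starts within 2000 bases on opposite strands, the log2 changes of transcript and partner correlated at r = 0.76 for A485 1 h and 0.51 for LBH589 1 h. These are descriptions of pairs measured in the same libraries. Only strands and the distance between starts were checked, so some pairs overlap, as Gm10612 and Cbfa2t3 do. Only 22 transcripts started beside a coding start without overlapping any coding gene, so most transcripts of these 78 pairs overlap one. For those 22 alone r was not computed. With strand use unknown, overlapping pairs may share reads. The part of shared reads in r and in the calls below was not tested. At A485 1 h 39 of the 78 transcripts and 58 of the partners were called, where 62.6% of all symbols were called. Of the pairs, 26 were called in the same direction and 2 in opposite directions. At LBH589 1 h 46 transcripts and 60 partners were called, where 67% of all symbols were called, with 29 and 8 pairs. Unrelated pairs of genes were not counted for comparison. For the degrader at 1 h r was 0.84 in the time course and 0.55 in the A485 series. Without the pair of Gm10612 and Cbfa2t3 these 2 values were 0.41 and 0.24, and that for A485 was 0.62. For washout 2 h r was 0.21.

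Gm11999, which starts 290 bases from Ikzf1, the gene of the factor Ikaros, changed by -1.39 at A485 1 h and its partner by -2.41. Gm15417 and its antisense partner Zbtb7b, a zinc-finger factor gene, changed by -1.63 and -1.60. Gm12915 and its antisense partner Inpp5b, a phosphatase gene, moved in opposite directions, by 0.75 and -0.81. Over 72 pairs that overlap on opposite strands, 23 were called in the same and 7 in opposite directions at A485 1 h (r = 0.65). There 41 of the transcripts and 52 of the partners were called, and unrelated pairs were again not counted. With the degrader at 1 h of the A485 series, Gm13032 and its antisense partner Padi1, a peptidylarginine deiminase gene, changed by 0.84 and 0.64. Of the 73 transcripts with none of these neighbours, 25 were called there. Called too were 6 of 16 with a same-strand overlap, 17 of 66 antisense and 3 of 22 that only started beside a coding start. The remaining class, with a coding overlap of strand not given, had 10 of 36 called. The share over all symbols was 25.6%.

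**Figure D5:**
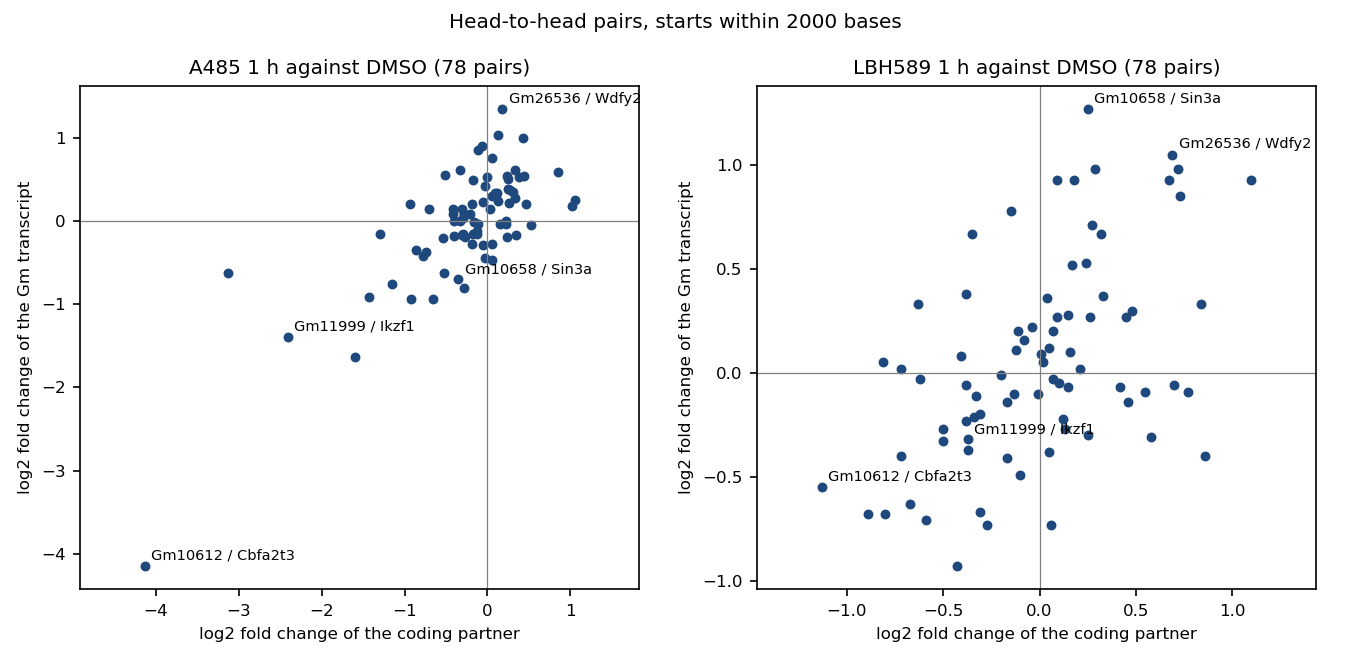
Log2 fold changes of Gm transcripts and their coding partners at A485 1 h and LBH589 1 h, a point for each of 78 pairs. Pairs have starts within 2000 bases on opposite strands. Head to head in the title means only this, some pairs overlap, and most of these Gm transcripts overlap a coding gene. The pair of Gm10612 and Cbfa2t3 lies far from the rest for A485, at -4.15 and -4.13.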

How the data were processed

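Each of the 4 experiments came with a gene table of PRO-seq libraries. Its values are DESeq2-normalized counts per the labels, a signal scaled by the authors within an experiment before they deposited it. As tools and builds, the submitters' processing notes list DESeq2 (1.46.0), featureCounts (2.0.1), HOMER, Bowtie2 (2.2.2), bedtools, SAMtools (1.16.1), mm39 and dm3; no source says how dm3 or strand was used. Low values gave each library's step, and all values were whole reads within 0.1 of a read, from which depth was taken. In the time course 3 columns were not used because their library was unsettled.

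Symbols averaging 10 or more were fitted with limma (3.58.1, R 4.3.3; lmFit, then eBayes with a trend) on log2(value + 1), with all groups of a table in 1 model and Benjamini-Hochberg adjustment over all of them; this scale understates changes of low values. Alternatives were edgeR (4.0.16) and DESeq2 (1.42.0) on the whole reads, other pseudocounts, filters and scalings, a replicate block, and libraries left out. Named were the 8 highest transcripts, up to 6 per direction and comparison with the largest called changes, up to 8 called at degrader 1 h in both experiments, the 3 on either side of the level limit, called neighbour pairs, and list genes with the largest called changes; other values named were chosen after they were seen. The transcripts and lists were chosen with earlier results of these data known. Neighbours were taken from RefSeq GRCm38.p6, where all 213 were matched. Deviations of same-numbered libraries correlated at 0.25, 0.28 and 0.23 at degrader 1 h of the time course. At degrader 15 min the values were 0, 0.24 and 0.32, and at 2 h 0.16 and 0.11. Elsewhere they ran from -0.18 to 0.15. No cut or test was set for pairing, and the main fits are unpaired. Peak tables were not used here.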

Additional observations from a re-analysis of the deposited data

Results flagged for a closer look

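The degrader's effect at 1 h, in log2 units, differed with and without A485 in 35 transcripts by limma's interaction test, of which the 6 with the largest difference in each direction are given. Gm7967 changed by -0.41 alone and by 0.62 on top of A485, a difference of 1.04 (adjusted p = 0.0222). Gm16861 changed by -0.53 alone and by 0.38 on top of A485, a difference of 0.91 (adjusted p = 0.0359). Gm38426 changed by -0.23 alone and by 0.31 on top of A485, a difference of 0.55 (adjusted p = 3.79e-06). Gm41640 changed by 0.00 alone and by 0.53 on top of A485, a difference of 0.53 (adjusted p = 0.000121). Gm16740 changed by -0.23 alone and by 0.19 on top of A485, a difference of 0.41 (adjusted p = 0.023). Gm38431 changed by -0.16 alone and by 0.03 on top of A485, a difference of 0.19 (adjusted p = 0.0477). The difference went the other way in the other 6. Gm26536 changed by 0.70 alone and by -0.76 on top of A485, a difference of -1.46 (adjusted p = 0.00202). Gm26536 reached the level limit only through treated libraries of the A485 series, so these values are conditioned on the choice. Gm16863 changed by 1.04 alone and by -0.41 on top of A485, a difference of -1.45 (adjusted p = 0.000431). Gm5907 changed by 0.74 alone and by -0.33 on top of A485, a difference of -1.07 (adjusted p = 0.0186). Gm52562 changed by 0.91 alone and by -0.16 on top of A485, a difference of -1.07 (adjusted p = 0.027). Gm19951 changed by 0.49 alone and by -0.51 on top of A485, a difference of -1.01 (adjusted p = 0.00148). Gm9961 changed by 0.81 alone and by -0.18 on top of A485, a difference of -0.99 (adjusted p = 0.0013). With 1 library left out, the call was lost for Gm7967 without DMSO replicate 5, degrader replicate 6, A485 replicate 1 or combination replicate 1 (0.86 to 0.97), Gm16861 without DMSO replicate 4, 5 or 6, degrader replicate 4, A485 replicate 3 or combination replicate 1 or 2 (0.68 to 0.92), Gm16740 without DMSO replicate 6, degrader replicate 4, A485 replicate 1 or combination replicate 1 or 2 (0.29 to 0.4), Gm38431 without DMSO replicate 4, 5 or 6, degrader replicate 4, 5 or 6, A485 replicate 2 or 3 or combination replicate 1 or 2 (0.16 to 0.21), Gm5907 without DMSO replicate 4, degrader replicate 5 or combination replicate 1 (-0.99 to -0.9) and Gm52562 without DMSO replicate 4 or 5, degrader replicate 4 or 6, A485 replicate 2 or 3 or combination replicate 1 (-1.04 to -0.72).

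Among named transcripts, 7 cases had every degrader library on opposite sides of DMSO in the time course and the A485 series. Only named transcripts were searched, the share over all symbols was not computed, and this difference was not tested. At 30 min the cases were Gm11110 (-0.37 and 0.14), Gm12610 (0.23 and -0.21), Gm12841 (0.84 and -0.53), Gm38250 (-0.49 and 0.3), Gm38431 (0.22 and -0.11) and Gm7160 (-0.40 and 0.11), with the time course first. At 1 h the case was Gm15446 (-0.28 and 0.51). It reached the level limit only through treated libraries of the A485 series, so the second value is conditioned on the choice. The 30 min values of the time course include the library labelled degrader 30 min replicate 3, which stands apart. Gm12841, for example, was 102, 77.9 and 72.8 in DMSO and 122, 119 and 232 at 30 min, the last value being that library's.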

How the results depend on the processing

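No called change of a named transcript changed sign under an alternative that was run. Among changes not called, with 1 library left out values ran -0.424 to 0.014 for Gm35202 at washout 2 h and -0.076 to 0.267 at LBH589 1 h (-0.027 with quantile normalization), -0.050 to 0.059 for Gm41640 at degrader 1 h of the A485 series, -0.203 to 0.012 for Gm6787 at A485 1 h, and -0.132 to 0.082 and -0.184 to 0.355 for Gm19696 and Gm32633 in the interaction. That of Gm32633 was -0.002 with edgeR and 0 with DESeq2. Of the values recomputed for named transcripts, 3224 kept their side of the threshold, 7 came to pass it and 338 lost it, 270 of these with 1 library left out. With only the groups compared in the fit, transcripts called were 8, 50 and 42 at degrader 30 min, 1 h and 2 h of the time course, 94 and 101 at washout 30 min and 2 h, 55 at degrader 15 min of the A485 series and 11 for both agents against A485. Without the 2 libraries that stand apart they were 58, 45, 59, 51, 102 and 84 for the 6 time-course comparisons in order. Without the 5 libraries with conflicting labels 14 were called at degrader 30 min. With the replicate block the counts were 9 at degrader 2 h, 79 at washout 30 min, 12 for both agents against A485 and 25 at degrader 1 h of the time course. The cause of these changes was not tested. Shares over all symbols were computed only for the main limma fit and for that without the 2 libraries that stand apart. Counts called in any other fit, above and below, are therefore given without a background. No paired analysis was possible because no numbers are shared for A485 30 min and 1 h, the interaction, LBH589 against DMSO and washout 2 h.

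With 1 library left out, counts ran 14 to 30, 12 to 40, 17 to 25 and 7 to 11 for the degrader in the time course, 0 with each library left out and 14 to 18 for washout, 17 to 25, 28 to 33 and 43 to 59 for the degrader in the A485 series, 84 to 91, 87 to 104 and 107 to 118 for A485, 11 to 22 for both agents, 21 to 37 for the interaction, 73 to 85 and 104 to 118 for LBH589 and 7 to 58 for its washout. At degrader 15 min of the A485 series the count was 19 without DMSO replicate 4 and 17 without degrader replicate 4, and quantile normalization gave 21 higher and 11 lower. With starts within 1000 bases, r over pairs was 0.42 and 0.22 for the degrader at 1 h, 0.63 for A485 and 0.10 for washout 2 h. Without the Gm10612 pair, a setting chosen after seeing the data, it was 0.41, 0.24 and 0.62. The edgeR test on whole reads called 72 transcripts at degrader 1 h of the A485 series, 26 at 1 h of the time course, 113 at A485 1 h and 119 at LBH589 1 h, and DESeq2 67, 27, 114 and 110. Alternatives on dREG sites and on the unsettled columns were not run. Depth limits transcripts near the level limit, such as Gm10612 with A485.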
